A study of Mus musculus with 18 samples.

Results

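6 genes of the HOXA and MLL-menin axis were followed in cKit-positive mouse bone marrow cells: Meis1, Pbx2 and Pbx3, which encode DNA-binding partners of HOX proteins, and Mef2c, Eya1 and Jmjd1c, regulators known as targets of MLL1 and menin or of MLL fusion proteins. They were taken by symbol from both count tables and made up 6 of 41079 genes. All 6 passed the filter on low counts in each fit, and tests are edgeR quasi-likelihood tests with p adjusted over all genes and a threshold of 0.05 (log2 change ± SE, tested as the first group named over the second). The cells carried AE9a, a truncated isoform of AML1-ETO that joins RUNX1 to part of RUNX1T1, or were wild type (WT). Cells of each genotype were treated with C16, RE or the vehicle DMSO, which gives 6 groups of 3 libraries, AE9a C16, AE9a RE, AE9a DMSO, WT C16, WT RE and WT DMSO. The study concerns inhibition of WDR5 and MLL1. The target, dose and duration of each compound are not stated in the labels, nor are the route by which AE9a was introduced and whether the 3 libraries of a group came from separate animals. P-values therefore measure the spread between these libraries, which may be technical.

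HOX proteins bind DNA loosely on their own and gain affinity and specificity from TALE homeodomain partners of the MEIS and PBX families. MLL1 (Kmt2a), a histone H3 lysine 4 methyltransferase tethered to chromatin by menin and built around a core that includes WDR5, keeps HOXA genes and Meis1 active in stem and progenitor cells. In MLL-rearranged leukemia the HOXA9-MEIS1-PBX3 module and genes such as Mef2c and Eya1 are highly expressed.

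Library totals ran from 16053727 to 27207748 fragments. Runx1t1 reached 34.5 to 46.8 CPM (fragments scaled to the library total) in AE9a DMSO libraries and no more than 0.402 CPM across the 9 WT libraries. In AE9a C16 libraries it stood at 2.35, 4.06 and 0.205 CPM, and it fell by 4.08 ± 0.46 on the log2 scale against AE9a DMSO (adjusted p = 4.4e-05). Kit itself, the marker of the sort, was present in all 18 libraries, at 215 to 1551 CPM in AE9a and 60.8 to 221 CPM in WT cells. WT replicate 2 stood apart from WT replicates 1 and 3 under each treatment, by a root mean square log2 difference of 0.863 to 1.165, against 0.357 to 0.403 between replicates 1 and 3. WT C16 replicate 2 was nearer to the AE9a C16 libraries (0.704 to 0.744) than to WT C16 replicates 1 and 3 (1.108 to 1.165). WT RE replicate 2 was 1.209 to 1.316 from AE9a RE libraries and 0.972 to 1.002 from WT RE replicates 1 and 3. WT DMSO replicate 2 was 1.113 to 1.208 from AE9a DMSO libraries and 0.863 to 0.881 from WT DMSO replicates 1 and 3. In WT replicate 2 the 12 megakaryocyte and platelet markers summed to 316 to 560 CPM, against 2878 to 11520 CPM in WT replicates 1 and 3. The 10 neutrophil markers summed to 11847 to 25272 CPM in it, against 3372 to 5044 CPM. Members' results that rest on WT replicate 2 are given with and without it. Replicate 2 was singled out from these same counts, and fits without it keep only replicates 1 and 3 in each WT group. P-values of such fits leave out the spread that replicate 2 adds, and calls made in them are descriptions. Among AE9a libraries, C16 replicate 3 stood 0.657 to 0.686 from replicates 1 and 2, which were 0.349 apart, and its mast and basophil markers summed to 331 CPM, against 1804 and 2314 CPM in those libraries. The genotypes came in separate count tables, so genotype and batch cannot be told apart, and in bulk samples fewer cells of a type cannot be told apart from less RNA per cell.

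Sequence upstream of the start site is shown for Meis1 and Mef2c, the pair of members whose levels followed each other most closely over the 18 libraries (Pearson r = 0.862 on log2 CPM). The windows are the 250 bases before a RefSeq start on GRCm38.p6, read 5′ to 3′ on the gene's strand, at chr11:19018970-19019219 (minus strand) and at chr13:83503784-83504033 (plus strand, the first of 3 Mef2c starts). Capitals mark the RUNX core motif TGTGGT, a motif of the family whose DNA-binding domain AE9a keeps.
Meis1: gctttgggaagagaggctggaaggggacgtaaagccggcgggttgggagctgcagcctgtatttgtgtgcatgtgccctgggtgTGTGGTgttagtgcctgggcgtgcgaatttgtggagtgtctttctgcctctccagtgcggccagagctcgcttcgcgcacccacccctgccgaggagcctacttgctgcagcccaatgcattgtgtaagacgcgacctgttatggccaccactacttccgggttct
Mef2c: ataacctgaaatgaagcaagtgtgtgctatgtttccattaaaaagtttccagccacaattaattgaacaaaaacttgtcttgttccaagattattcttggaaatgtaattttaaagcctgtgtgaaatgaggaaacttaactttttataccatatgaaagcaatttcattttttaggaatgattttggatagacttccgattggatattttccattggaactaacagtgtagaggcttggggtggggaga
The RUNX match lies 161 to 166 bases before the Meis1 start, and 14% of 32851 windows of this length hold TGTGGT on either strand. The Mef2c window holds no match to it, nor to TGACAG (MEIS), TGATNNAT (HOX-PBX) or CTA and TAG with 4 bases between (MEF2), which were found in 15.9%, 7.68% and 3.2% of windows. RefSeq windows were at hand for 4 of the 6 members, 7 windows in all, and the Meis1 match was the one match among them. Motifs were searched on both strands and do not overlap here, and a match of letters is a description of the window.

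Meis1 encodes the TALE protein that stabilizes HOXA9 on DNA and is required for stem cells and megakaryocytes (chromosome 11, 18830428 to 18968992, minus strand, GRCm39). It was not called for either compound in AE9a cells, and its WT libraries were widely spread. Meis1 had 15.8, 17.0 and 13.4 CPM in AE9a C16 libraries, 14.1, 13.9 and 15.5 CPM in AE9a RE libraries, and 13.8, 14.6 and 13.3 CPM in AE9a DMSO libraries. The AE9a groups overlapped, and the log2 change was 0.18 ± 0.10 for C16 (95% interval −0.05 to 0.41, adjusted p = 0.14) and 0.1 ± 0.1 for RE (−0.13 to 0.33, adjusted p = 0.49). Without AE9a C16 replicate 3, the library that stood apart and was lowest in Runx1t1, the C16 change was 0.27 and was called (adjusted p = 0.021).

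In WT cells Meis1 had 87.9, 22.3 and 95.8 CPM under C16, 59.9, 12.1 and 69.0 CPM under RE, and 61.2, 18.8 and 57.3 CPM under DMSO, in replicates 1, 2 and 3. Replicate 2 was the low library in each treatment, at or near the level of AE9a cells, while replicates 1 and 3 were highest under C16. The C16 change in WT cells was 0.65 ± 0.74 (adjusted p = 0.64). With the replicate number as a block it was 0.57 ± 0.14 (adjusted p = 0.027), and without replicate 2 it was 0.69 ± 0.08 (adjusted p = 0.00024). Between numbered libraries the ratio of C16 to DMSO was 1.44, 1.18 and 1.67 in replicates 1, 2 and 3. For RE in WT cells the change was 0.05 ± 0.73 (adjusted p = 1), −0.08 with the block and 0.13 without replicate 2.

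Against WT cells, AE9a cells had less Meis1 under each treatment, by −1.69 ± 0.57 under DMSO (adjusted p = 0.042), −2.10 ± 0.58 under C16 (0.016) and −1.61 ± 0.57 under RE (0.041). The call under DMSO was lost on leaving out any 1 of AE9a DMSO replicates 1, 2 and 3 or WT DMSO replicates 1 and 3 (adjusted p from 0.1 to 0.13). That under C16 was lost without AE9a C16 replicate 3, WT C16 replicate 1 or WT C16 replicate 3 (0.055 to 0.076), and that under RE without any 1 of the AE9a RE libraries or WT RE replicate 1 or 3 (0.095 to 0.14). The differences without WT replicate 2 were −2.05, −2.50 and −2.05, all called (adjusted p of at most 1.5e-08) on WT replicates 1 and 3 alone. Meis1 shares 612 exon bases, 16.6% of its exon length, with the antisense gene Gm16141. Counting ignored strand and Gm16141 itself held 5 to 130 fragments per library. The Meis1 level is uncertain from this overlap, and the size of its effect was not measured. Markers differed between the genotypes as well. In AE9a against WT cells under DMSO, C16 and RE, 4, 6 and 3 of 9 HSC markers and 3, 12 and 7 of 12 megakaryocyte and platelet markers were lower, with none higher. Over all genes 13.8%, 18.9% and 18% were lower and 12.9%, 16.1% and 17.8% higher. Of 10 mast and basophil markers 7, 3 and 7 were higher and 1, 4 and 1 lower, and of 10 erythroid markers 6, 1 and 3 were higher and 0, 5 and 0 lower. Of 6 progenitor markers 2, 3 and 2 were higher and 3, 0 and 2 lower. Of 9 B lineage markers 2, 0 and 4 were lower, and of 10 neutrophil markers 0, 3 and 0, with none higher. Of 10 monocyte and macrophage markers 0, 5 and 0 were higher and 2, 1 and 4 lower. The part of these markers in the genotype differences of the 6 genes was not tested.

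**Figure D1:**
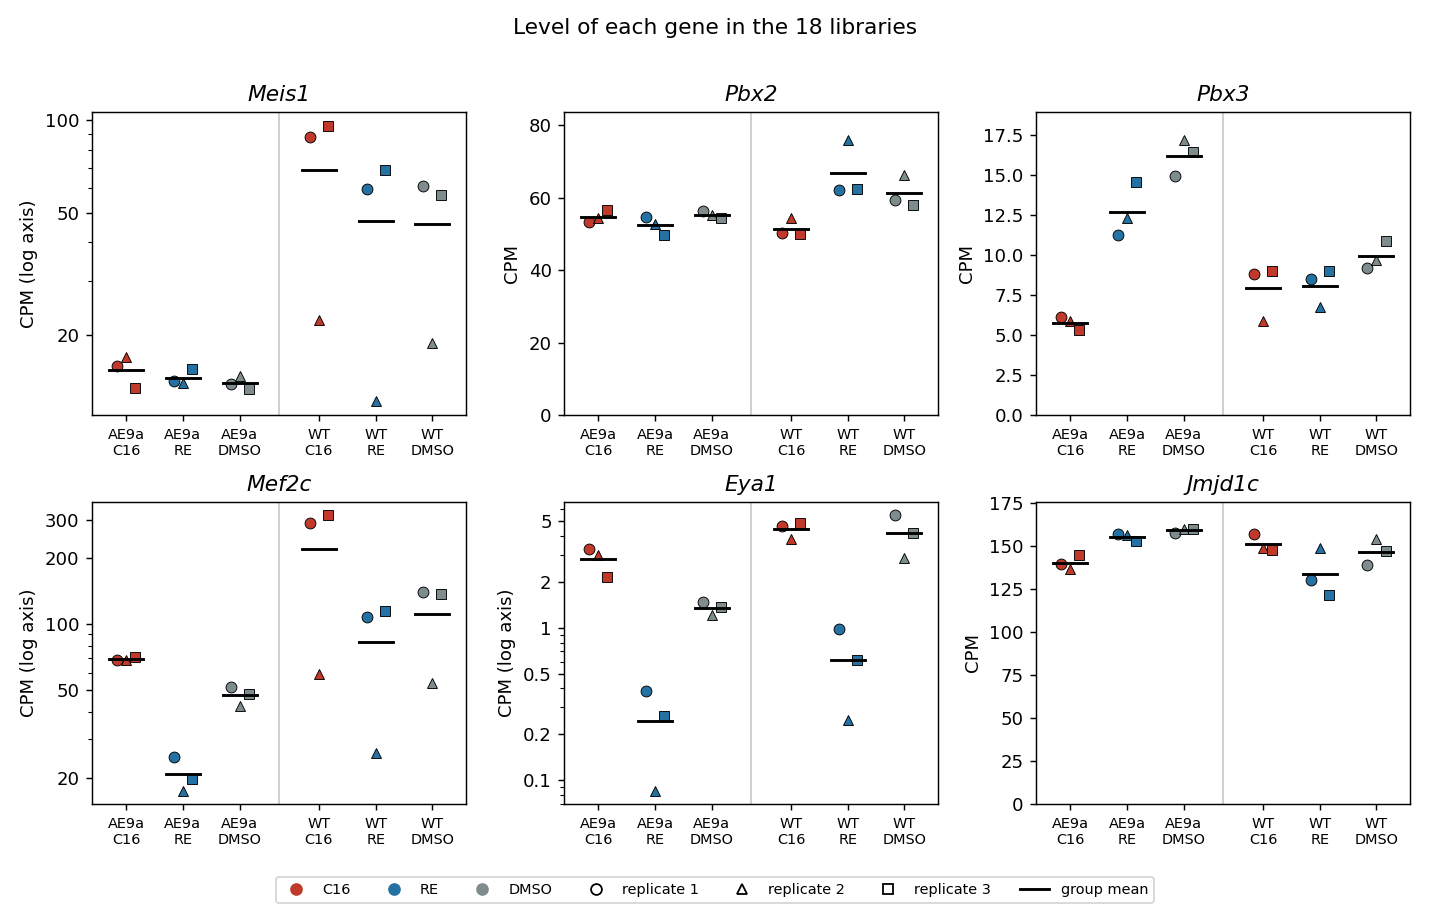
Level of each gene in CPM, on the vertical axis, in every library, with C16, RE and DMSO libraries of AE9a and then of WT cells from left to right; symbols give replicate numbers, horizontal bars group means, and the Meis1, Mef2c and Eya1 axes are logarithmic. Pbx3 falls to 5.28 to 6.09 CPM in AE9a C16, Eya1 is below 1 CPM under RE in both genotypes, and WT replicate 2 (triangles) is the low WT library for Meis1 and Mef2c.

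Pbx2 encodes a broadly expressed PBX partner (chromosome 17, 34811233 to 34816374, plus strand), and it was level within AE9a cells. It stood at 53.3, 54.5 and 56.5 CPM in AE9a C16 libraries, 54.7, 52.7 and 49.8 CPM in AE9a RE libraries and 56.4, 55.2 and 54.4 CPM in AE9a DMSO libraries. The 3 groups overlapped, and the interval of the change was −0.07 to 0.11 on the log2 scale for C16 and −0.13 to 0.06 for RE (adjusted p = 0.69 and 0.55). In WT cells Pbx2 had 50.2, 54.3 and 49.9 CPM under C16, 62.2, 76.0 and 62.3 CPM under RE and 59.3, 66.2 and 58.1 CPM under DMSO. Each WT C16 library was below each WT RE and WT DMSO library, with a change against DMSO of −0.18 ± 0.13 (adjusted p = 0.44), which was called without replicate 2 (−0.17, adjusted p = 0.033) and not with the block (0.11). Under RE the difference of AE9a against WT was −0.29 ± 0.09 (adjusted p = 0.03). It was called in 9 of 15 alternatives, and in 2 of 6 fits without 1 library. This difference was −0.14 and not called without WT RE replicate 2 alone (adjusted p = 0.18), and −0.14 and called without WT replicate 2 in all treatments (0.016). Under C16 it was 0.13 ± 0.10 (adjusted p = 0.28), and 0.20 and called without WT replicate 2 (0.0013), opposite in sign to the RE value. Under DMSO it was −0.13 ± 0.09 and not called with or without that replicate (0.34 and 0.37).

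Pbx3, whose protein forms the leukemia-associated complex with HOXA9 and MEIS1, showed the strongest response to C16 by adjusted p among the members (chromosome 2, 34061469 to 34264168, minus strand). It had 6.09, 5.88 and 5.28 CPM in AE9a C16 libraries, 11.3, 12.3 and 14.6 CPM in AE9a RE libraries, and 14.9, 17.2 and 16.4 CPM in AE9a DMSO libraries. The groups did not overlap, and those libraries held 103 to 468 Pbx3 fragments each. Pbx3 fell under C16 by −1.46 ± 0.12 (adjusted p = 8.2e-06), a call kept in each of the 15 alternatives, from −1.54 to −1.41. Under RE its change was −0.31 ± 0.12 (adjusted p = 0.076), and the alternatives that called it were limma-voom (adjusted p = 0.046) and leaving out AE9a RE replicate 3 (−0.42, adjusted p = 0.032).

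WT cells held less Pbx3 under DMSO and a smaller response to C16. The levels were 8.81, 5.90 and 9.02 CPM in WT C16 libraries, 8.49, 6.73 and 8.99 CPM in WT RE libraries and 9.18, 9.67 and 10.9 CPM in WT DMSO libraries. Every WT C16 and WT RE library was below every WT DMSO library, by −0.26 ± 0.19 for C16 and −0.27 ± 0.19 for RE, and neither was called (adjusted p = 0.44 and 1) with or without the block or replicate 2. The C16 response was lower in AE9a than in WT cells by −1.14 ± 0.22 (adjusted p = 0.0047). It was called in all 21 alternatives, from −1.29 to −1.04, and was −1.28 without WT replicate 2. The level of Pbx3 was higher in AE9a than WT under DMSO, by 0.73 ± 0.15 (adjusted p = 0.0029), and under RE, by 0.73 ± 0.16 (0.0023), both also called without WT replicate 2 (0.73 and 0.65). Under C16 the difference was −0.41 ± 0.16 (adjusted p = 0.053), called without WT replicate 2 (−0.56, adjusted p = 0.002).

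Per exon length Pbx2 was the more abundant of the pair everywhere, and the ratio of Pbx3 to Pbx2 in FPKM (CPM divided by exon length in kilobases) differed between treatments in AE9a cells. It was 0.0732 ± 0.0074 under C16, 0.170 ± 0.031 under RE and 0.204 ± 0.017 under DMSO in AE9a cells (SD, n = 3 each), and 0.108 ± 0.028, 0.0856 ± 0.021 and 0.113 ± 0.015 in WT C16, WT RE and WT DMSO cells. The AE9a C16 libraries, at 0.0650 to 0.0795, lay below all AE9a RE and AE9a DMSO libraries. They overlapped the WT C16 and WT RE libraries only through WT replicate 2, at 0.0755 under C16 and 0.0615 under RE. WT replicates 1 and 3 had 0.122 and 0.1257 under C16 and 0.095 and 0.1003 under RE, all above the AE9a C16 libraries.

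**Figure D2:**
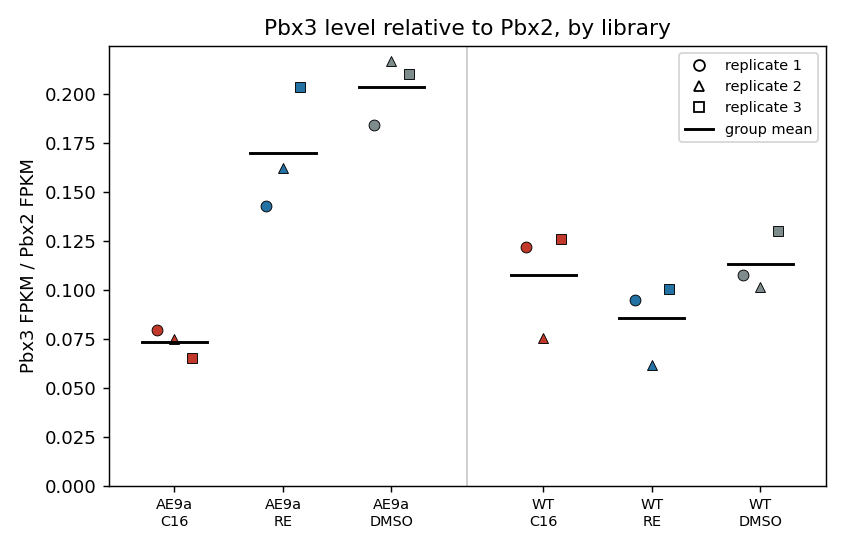
Ratio of Pbx3 FPKM to Pbx2 FPKM, on the vertical axis from 0, in each of the 18 libraries, with AE9a groups left of WT groups and C16, RE and DMSO from left to right in each; bars are group means of 3 libraries. The 3 AE9a C16 libraries lie at 0.0650 to 0.0795, below the 0.184 to 0.217 of AE9a DMSO libraries.

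Of 8 listed relatives, all tested in AE9a cells, 3 rose, 4 fell and 1 was not called under C16, where 66.3% of all genes were called (33.1% higher and 33.2% lower), with a median log2 change of −0.68 against 0.00 over all genes. Meis2 averaged 2.33 ± 1.77 CPM in AE9a C16 libraries and 38.2 ± 7.10 CPM in AE9a DMSO libraries (SD, n = 3 each), a fall of −3.95 ± 0.42 (adjusted p = 3e-05). Meis3 fell by −3.82 ± 0.28 (3.9e-06). Under RE 1 of the 8 was called, Meis3, which rose by 0.65 ± 0.20 (adjusted p = 0.041), where 29% of genes were called, and none was on leaving out any 1 library. Meis2 had 6 to 1262 fragments per library in AE9a cells and at most 3 in any WT library.

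Of 11 HOXA genes, the partners of these cofactors, 7 were tested in AE9a cells, of which 5 rose and 2 were not called under C16 (median 0.79), while 5 fell and 2 were not called under RE (median −2.20), where 33.1% of all genes rose under C16 and 16.8% fell under RE. Both compounds were set against the same 3 DMSO libraries. Hoxa9 averaged 7.27 ± 0.54 CPM in AE9a C16, 0.702 ± 0.09 CPM in AE9a RE and 3.93 ± 0.35 CPM in AE9a DMSO cells. In WT cells it averaged 4.08 ± 2.04, 0.702 ± 0.12 and 4.11 ± 0.95 CPM under C16, RE and DMSO.

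Mef2c encodes a MADS-box transcription factor used by lymphoid, megakaryocytic and leukemic progenitors (chromosome 13, 83652136 to 83815197, plus strand). In AE9a cells it rose under C16 and fell under RE. Its levels were 69.1, 69.1 and 71.2 CPM in AE9a C16 libraries, 24.9, 17.5 and 19.7 CPM in AE9a RE libraries and 52.0, 42.4 and 48.3 CPM in AE9a DMSO libraries. The 3 groups did not overlap. The C16 change was 0.59 ± 0.11 (adjusted p = 0.00097), and the RE change was −1.16 ± 0.11 (adjusted p = 0.00053), each called in 14 of 15 alternatives. The direct difference of C16 against RE was 1.75 ± 0.11 (adjusted p = 8.1e-07). In 1 fit of all 18 libraries, where the biological coefficient of variation was 0.243 against 0.103 in the fit of AE9a libraries, neither the change under C16 nor that under RE was called (0.64 and −1.12, adjusted p = 0.36 and 0.31).

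In WT cells Mef2c stood at 291, 59.1 and 315 CPM under C16, 108, 26.0 and 115 CPM under RE and 141, 54.0 and 138 CPM under DMSO. As with Meis1, replicate 2 was low throughout, and the order C16, DMSO, RE held within each replicate number. The C16 change was 1.05 ± 0.72 (adjusted p = 0.42). It was 0.86 ± 0.18 with the replicate block (adjusted p = 0.017) and 1.17 ± 0.06 without replicate 2 (adjusted p = 4.4e-06), and the ratio of C16 to DMSO was 2.07, 1.09 and 2.28 in replicates 1, 2 and 3. The RE change was −0.40 ± 0.71 (adjusted p = 1), −0.55 ± 0.18 with the block (0.28) and −0.32 ± 0.06 without replicate 2 (0.021). The difference between genotypes in the response was −0.41 ± 0.76 for C16 and −0.72 ± 0.77 for RE (adjusted p = 0.73 and 1). Without WT replicate 2 they were −0.52 and −0.81, both called (0.0088 and 0.026).

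Mef2c was lower in AE9a than in WT cells by −1.20 ± 0.55 under DMSO (adjusted p = 0.12), −1.61 ± 0.55 under C16 (0.036) and −1.92 ± 0.56 under RE (0.016). The differences without WT replicate 2 were −1.52, −2.04 and −2.33, all called (at most 1.5e-07) on WT replicates 1 and 3 alone. Leaving out WT C16 replicate 1 or 3, or any of the AE9a C16 libraries, ended the call under C16 (0.089 to 0.16). Leaving out AE9a RE replicate 2 or 3, or WT RE replicate 1 or 3, ended that under RE (0.052 to 0.063). Megakaryocyte and platelet markers moved with Meis1 and Mef2c across WT libraries, with 316 CPM in replicate 2 and 10356 and 11520 CPM in replicates 1 and 3 under C16, and their part in these levels was not tested. HSC markers, at 261, 52.6 and 283 CPM, and erythroid markers, at 259.5, 76.1 and 282 CPM in replicates 1, 2 and 3 under C16, were also low in replicate 2. In AE9a cells the megakaryocyte and platelet markers summed to 60.1 to 155 CPM under C16, 453 to 579 CPM under RE and 301 to 427 CPM under DMSO. These sums were lowest in the group with the most Mef2c and highest in the group with the least.

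**Figure D3:**
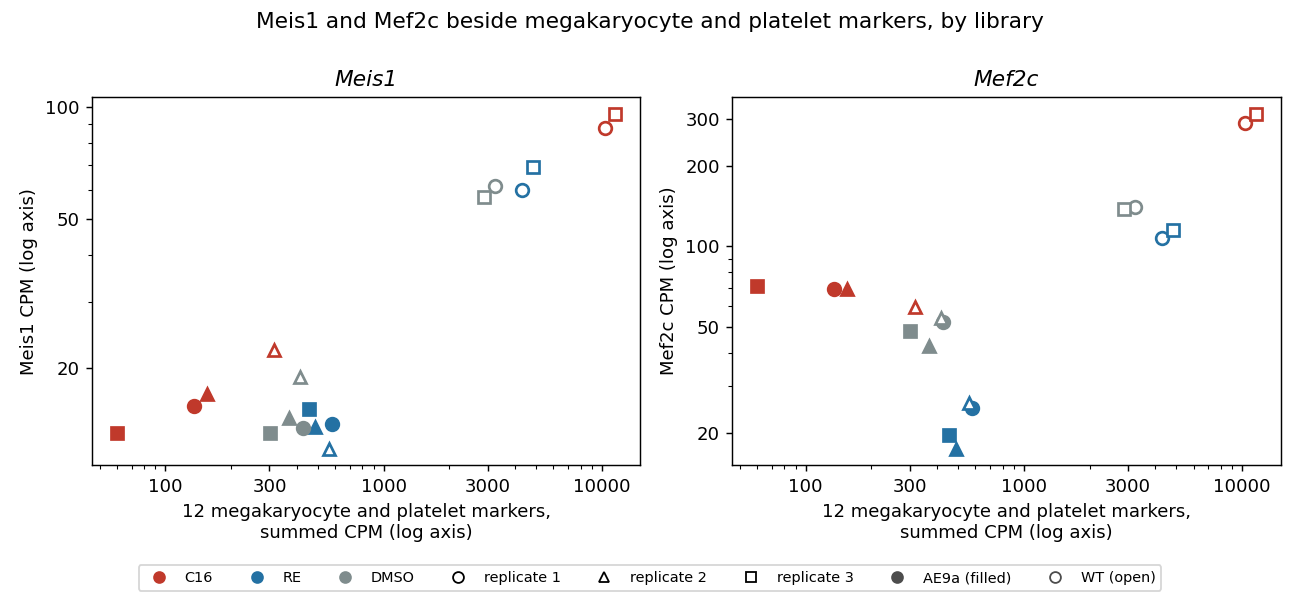
Meis1 (left) and Mef2c (right) in CPM against the summed CPM of 12 megakaryocyte and platelet markers, both axes logarithmic, 1 point per library, with AE9a filled, WT open, color for treatment and symbol for replicate number. WT replicates 1 and 3 lie at 2878 CPM of markers or more, and WT replicate 2 (open triangles) lies with the AE9a libraries at 579 CPM or less.

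Eya1 encodes a coactivator and phosphatase that works with homeodomain proteins (chromosome 1, 14239177 to 14381259, minus strand), and it was the member with the largest response to RE. It had 3.30, 3.0 and 2.15 CPM in AE9a C16 libraries, 0.384, 0.0852 and 0.263 CPM in AE9a RE libraries and 1.48, 1.21 and 1.37 CPM in AE9a DMSO libraries. These values rest on 42 to 76, 2 to 7 and 27 to 33 fragments per library, and the 3 groups did not overlap. Eya1 rose under C16 by 1.1 ± 0.27 (adjusted p = 0.0053) and fell under RE by −2.46 ± 0.39 (adjusted p = 0.0025), both called in each of 15 alternatives. AE9a RE replicate 2, with 2 fragments, was below the detection limit of 3 counts.

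In WT cells, Eya1 had 4.68, 3.85 and 4.90 CPM in WT C16 libraries, 0.976, 0.249 and 0.61 CPM in WT RE libraries and 5.48, 2.87 and 4.23 CPM in WT DMSO libraries. No WT RE library, with 4 to 17 fragments each, reached a WT DMSO library, with 51 to 95. The change was −2.74 ± 0.44, with an unadjusted p of 0.000234 that did not pass adjustment over all genes in the WT fit (adjusted p = 0.24). It was called with the replicate block (−2.75 ± 0.30, adjusted p = 0.023), without replicate 2 (−2.60 ± 0.28, 0.002), by DESeq2 (1.1e-06) and in the fit of all 18 libraries (0.0081). The RE response differed between genotypes by 0.32 ± 0.66 (95% interval −1.09 to 1.74, adjusted p = 1). Under C16 the Eya1 change in WT cells was 0.16 ± 0.39 (adjusted p = 0.84), and the C16 response differed by 0.98 ± 0.51 (adjusted p = 0.2), called without WT replicate 2 (1.12, adjusted p = 0.022). The direct difference of C16 against RE was called in both genotypes, at 3.56 ± 0.36 in AE9a (adjusted p = 1.4e-05) and 2.90 ± 0.44 in WT cells (0.011).

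Against WT, Eya1 was lower in AE9a cells under DMSO by −1.61 ± 0.37 (adjusted p = 0.0053), called in all 15 alternatives. Under C16 the difference was −0.62 ± 0.36 (adjusted p = 0.18) and under RE −1.28 ± 0.49 (0.054), and without WT replicate 2 both were called (0.026 and 0.0087). The paralogs Eya2 and Eya4 fell under C16 in AE9a cells, by −0.90 ± 0.28 and −2.37 ± 0.48, where Eya1 rose.

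Jmjd1c encodes a JmjC-domain protein of the KDM3 histone demethylase family (chromosome 10, 66932189 to 67092105, plus strand) and was the member with the narrowest range. Its levels were 139, 137 and 144 CPM in AE9a C16 libraries, 157, 156 and 153 CPM in AE9a RE libraries and 157, 159.5 and 159.6 CPM in AE9a DMSO libraries. The AE9a C16 libraries were the lowest and did not overlap the others. The fall under C16 was −0.15 ± 0.03 (adjusted p = 0.0031), called in 14 of 15 alternatives and not in the fit of all 18 libraries (−0.10, adjusted p = 0.32). Under RE the change was 0.01 ± 0.03 (adjusted p = 0.86), although each AE9a RE library was below each AE9a DMSO library in plain CPM. In WT cells Jmjd1c had 157, 149 and 148 CPM under C16, 129.8, 149 and 122 CPM under RE and 139, 154 and 147 CPM under DMSO, and neither change was called (adjusted p = 0.59 and 1). The level in AE9a was above that in WT cells under RE by 0.28 ± 0.08 (adjusted p = 0.011), a call lost without WT RE replicate 3 (0.21, adjusted p = 0.056) and kept without WT replicate 2 (0.41, 3.5e-06). Under DMSO the difference was 0.14 ± 0.08 (adjusted p = 0.21), and 0.19 and called without WT replicate 2 (0.0019). Under C16 it was −0.06 ± 0.08 and not called (0.52).

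Counted together under C16 in AE9a cells, 2 of 6 members rose, 2 fell and 2 were not called, where 66.3% of all genes tested were called, 33.1% higher and 33.2% lower. Under RE 2 of 6 fell, where 29% of genes were called, 12.2% higher and 16.8% lower. For C16 against RE 2 were higher and 2 lower, where 74.6% were called, 37.5% higher and 37.2% lower. The direct differences of C16 against RE not yet given were −1.15 ± 0.12 for Pbx3 (adjusted p = 2.1e-05) and −0.16 ± 0.03 for Jmjd1c (0.0018), both called. Those for Meis1 (0.08, 95% interval −0.15 to 0.31) and Pbx2 (0.06, −0.04 to 0.15) were not. With the replicate block the counts were 4, 2 and 4 called, where 67.6%, 31.2% and 75.8% of genes were. Libraries of the groups compared did not overlap for 4 members each under C16, under RE and for C16 against RE, where they did not for 70.7%, 50.2% and 77.7% of genes. The shares called over all genes are large, so the counts alone say little about these 6. Among AE9a libraries, markers of other cell types moved with these changes. Under C16, 9 of 10 erythroid, 9 of 10 mast and basophil and 9 of 12 megakaryocyte and platelet markers fell, and the mast and basophil markers summed to 331 to 2314 CPM in AE9a C16 libraries, against 10796 to 14512 CPM in AE9a DMSO libraries. Kit fell by 1.92 ± 0.16 on the log2 scale in the same comparison. The neutrophil markers summed to 9861 to 12001 CPM under C16, against 5575 to 6319 CPM under DMSO, with 4 of 10 higher and 6 lower. Under RE 7 of 10 monocyte and macrophage markers fell, 1 of 12 megakaryocyte and platelet markers rose, none of 10 mast and basophil markers was called, and Kit rose by 0.56 ± 0.15. Of the other marker lists, 4 of 6 progenitor genes rose and 1 fell under C16, 2 of 9 HSC genes rose and 3 fell, 2 of 7 B lineage genes fell, and 3 of 10 monocyte and macrophage genes rose and 2 fell. Under RE 4 of 10 erythroid, 3 of 9 HSC, 1 of 7 B lineage and 2 of 6 progenitor genes fell, 1 progenitor gene rose, and 3 of 10 neutrophil genes rose and 4 fell. In WT cells 6 of 9 B lineage and 2 of 10 monocyte and macrophage genes fell under C16, with no other marker called under either compound in the fit of all 9 WT libraries. Hoxb5 was at 0 in all AE9a RE libraries, and no other marker was at 0 throughout a group. The part of these shifts in the levels of the 6 genes was not tested.

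In WT cells no member was called for C16 or for RE against DMSO by edgeR, where 3.1% and 0.0266% of genes were called (0.957% higher and 2.15% lower for C16, none higher for RE). At an unadjusted p under 0.05 the count was 0 for C16 and 1 for RE, by DESeq2 it was 0 and 1, and by limma-voom 0 and 0. With the replicate block Meis1 and Mef2c were called for C16 and Eya1 for RE, where 24.2% and 0.512% of genes were called, and without replicate 2 the calls were Meis1, Mef2c and Pbx2 for C16 and Mef2c and Eya1 for RE, where 41.7% and 8.02% were called. For C16 against RE in WT cells 1 member was called, Eya1, where 11.9% of genes were, 5.4% higher and 6.49% lower. With the block 4 were called, Eya1, Meis1, Mef2c and Pbx2, the last of them lower under C16 (−0.34 ± 0.07, adjusted p = 0.014), where 34.2% of genes were.

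**Figure D4:**
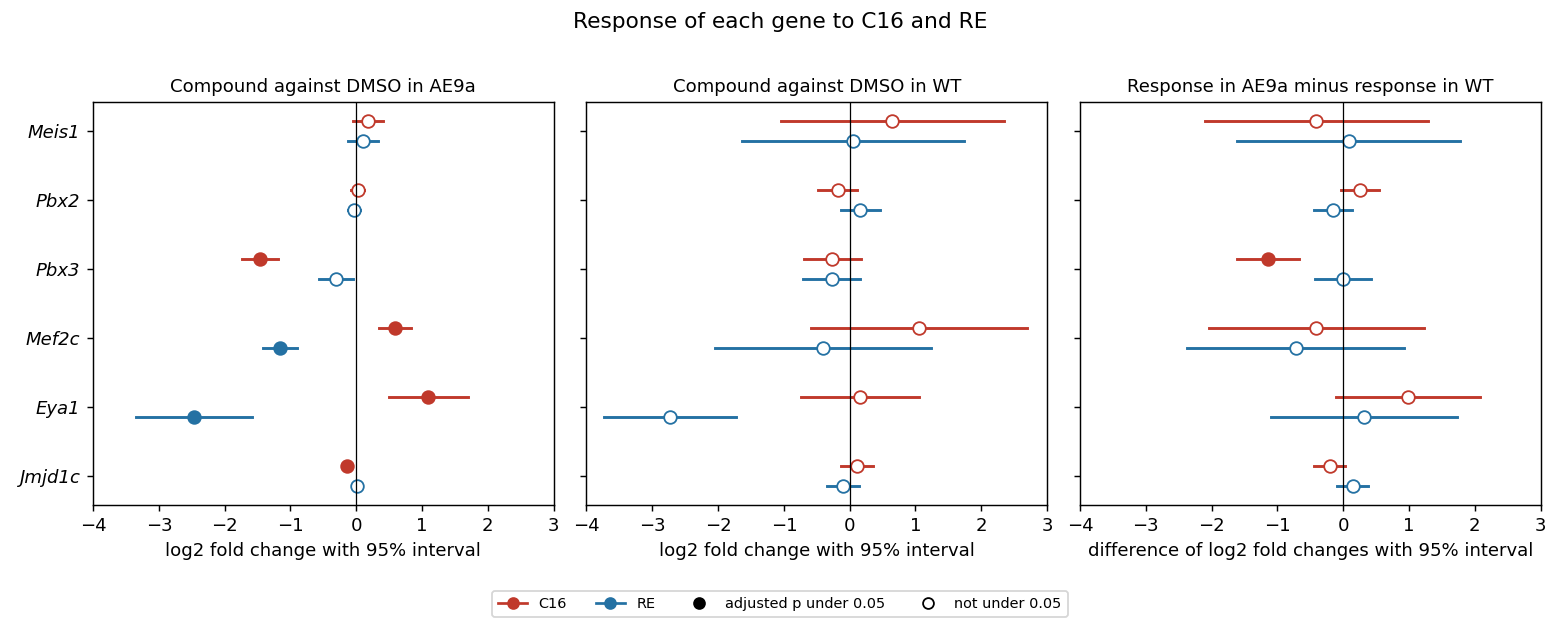
Log2 change of each gene under C16 (red) and RE (blue) against DMSO in AE9a cells (left) and WT cells (middle), and the AE9a response minus the WT response (right), with 95% intervals on the horizontal axis; filled points have an adjusted p under 0.05. Mef2c and Eya1 lie on opposite sides of 0 under C16 and RE in AE9a cells, and the Pbx3 difference under C16 is the one filled point on the right. Intervals for Meis1 and Mef2c in the middle and right panels are the widest.

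In WT cells the libraries did not overlap for 2 members each under C16 (Pbx2 and Pbx3), under RE (Pbx3 and Eya1) and for C16 against RE (Pbx2 and Eya1), where they did not for 29.9%, 13.6% and 34.9% of genes. Between genotypes 3 of 6 members were called under DMSO (Pbx3 higher, Meis1 and Eya1 lower in AE9a cells), 2 under C16 (Meis1 and Mef2c lower) and 5 under RE (Pbx3 and Jmjd1c higher, Meis1, Pbx2 and Mef2c lower). Over all genes 26.7%, 35% and 35.8% were called, with 12.9%, 16.1% and 17.8% higher and 13.8%, 18.9% and 18% lower in AE9a cells. Without WT replicate 2 the counts were 5, 5 and 6 of 6 members, where 50.7%, 65.3% and 54.6% of genes were called. Libraries of the genotypes did not overlap for 6 members under DMSO, 3 under C16 (Meis1, Eya1 and Jmjd1c) and 4 under RE (Pbx2, Pbx3, Mef2c and Jmjd1c), where they did not for 47.8%, 39.1% and 50.6% of genes. For differences between the genotypes' responses, 1 of 6 was called for C16, Pbx3, where 13.1% of genes were, 4.78% higher and 8.29% lower. Without WT replicate 2 all 6 were called, where 49.8% of genes were. None was called for RE, where 0% of genes were (0 of 15809 by edgeR and limma-voom, 34 by DESeq2, and 676 at an unadjusted p under 0.05, with none of the 6 members among these). Mef2c was called for RE without WT replicate 2, where 1.25% of genes were.

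Per exon length, in AE9a DMSO cells, Pbx2 was highest at 18.01 ± 0.321 FPKM. Jmjd1c, Meis1 and Pbx3 followed at 3.87 ± 0.029, 3.78 ± 0.177 and 3.66 ± 0.262 FPKM, which do not differ beyond their spread, and then Mef2c at 0.844 ± 0.086 and Eya1 at 0.231 ± 0.023 FPKM (SD, n = 3 each). In WT DMSO cells the order was Pbx2 at 19.9 ± 1.41, Meis1 at 12.4 ± 6.34, Jmjd1c at 3.56 ± 0.185, Pbx3 at 2.24 ± 0.199, Mef2c at 1.97 ± 0.876 and Eya1 at 0.715 ± 0.223 FPKM, with Pbx3 and Mef2c parted by less than the spread of Mef2c. The exon lengths used for counting were 56353 bases for Mef2c and 41063 bases for Jmjd1c, against 3072 to 5865 bases for the others. Union lengths of that size can lower a per-length level, so the places of Mef2c and Jmjd1c are uncertain.

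Among the listed genes outside the members, other MLL-menin targets moved in both directions under C16 in AE9a cells, with 7 of 15 higher and 3 lower (median 0.34). Zfp521, the gene of a zinc-finger cofactor of stem and progenitor cells, fell by −2.01 ± 0.17 and Igf2bp3 by −1.25 ± 0.17. Under RE 8 of 15 fell and 1 rose (median −0.28). Flt3, a progenitor cytokine receptor, averaged 5.04 ± 0.53 CPM in AE9a RE and 13.97 ± 1.87 CPM in AE9a DMSO cells, a fall of −1.43 ± 0.17 (adjusted p = 9e-04), and Sox4 fell by −0.96 ± 0.11 (8e-04). Of 11 genes of the MLL-menin complex and its elongation partners, 8 rose under C16, where 33.1% of all genes did, led by Mllt3 (1.06 ± 0.11) and the core subunit Dpy30 (0.97 ± 0.07), and 5 fell under RE, where 16.8% of all genes did, led by Dpy30 (−0.32 ± 0.07), with 3 to 5 called on leaving out 1 library. Of 9 tested relatives of Mef2c, Eya1 and Jmjd1c, 2 rose and 4 fell under C16 (median −0.01), and 1 fell under RE, Eya4 (−1.56 ± 0.44), a count that was 0 in 5 of 6 fits without 1 library. In WT cells none of these lists had a gene called for C16, and for RE the one called was Hoxa6 (−3.07 ± 0.29, adjusted p = 0.022), with no HOXA gene called on leaving out any 1 library. In WT cells without replicate 2, where 41.7% and 8.02% of genes were called, C16 and RE gave 5 and 0 TALE relatives called, 1 and 5 HOXA genes, 9 and 7 other targets, 7 and 0 complex genes, and 7 and 2 relatives of Mef2c, Eya1 and Jmjd1c. Their members were chosen with earlier results of these data known, so the counts are descriptions.

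The genes whose levels were most like each member's over the 18 libraries were found by Pearson correlation of log2 CPM. Trim58 and Gm30782 were nearest to Meis1 (both r = 0.979), and Chsy1 (0.982) and Phtf2 (0.965) to Mef2c. Trim58 averaged 24.7 ± 19.1 CPM in WT C16 and 9.84 ± 6.49 CPM in WT DMSO cells, a spread almost as large as its mean in WT C16. Arhgap32 (0.944) and Tcf4 (0.943), an E-protein gene, were nearest to Eya1. Tcf4 fell under RE by −1.21 ± 0.09 in AE9a cells (adjusted p = 0.00031) and by −0.88 ± 0.07 in WT cells (0.011), and Arhgap32 by −1.92 ± 0.19 (0.00056) and −1.85 ± 0.14 (0.0075). Plvap (0.94) and C430042M11Rik (0.939) were nearest to Pbx3, S100a11 (0.952) and Alcam (0.951) to Pbx2, and Phf2os1 (0.876) and Calcrl (0.861) to Jmjd1c. Between members, the next closest pair after Meis1 and Mef2c was Mef2c and Eya1 (r = 0.779). All these correlations are over libraries that share genotype and replicate structure, and they are given without a test.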

How the data were processed

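RNA-seq was made from cKit-positive bone marrow cells in 18 libraries. The deposited values are raw fragment counts per gene, 1 table per genotype. Per the file headers they were made with featureCounts 1.6.2 on paired fragments over exons, without strand, with a GRCm39 annotation. The submitters' processing notes name HISAT2 2.1.0, fastp 0.23.2 and FastQC 0.11.9, Subread with featureCounts 2.0.3, and DESeq2. All columns were matched to a sample (0 were not), and no 2 libraries held identical counts. Depth was 16053727 to 27207748 fragments per library, the detection limit was 3 counts, and limits cover counting error only.

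Counts were tested with edgeR 4.0.16 (R 4.3.3, quasi-likelihood F test, filterByExpr, TMM, Benjamini-Hochberg adjusted p under 0.05) in fits of 9 AE9a libraries (14704 genes), 9 WT libraries (15046) and all 18 libraries (15809, for genotype comparisons and differences of responses). Printed levels are plain CPM or FPKM computed from the counts. Alternatives were DESeq2 1.42.0, limma-voom (limma 3.58.1), relative log expression (RLE) scaling, upper-quartile scaling, no filter and at least 1 CPM in 3 libraries. Others were other sets of libraries in the fit, a replicate block and leaving out libraries. The fits were tested on simulated counts drawn independently for each library, without a replicate that stands apart in every group as WT replicate 2 does. That test cannot show how the WT and genotype fits behave with such a replicate.

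Members and lists were chosen with earlier results of these data known. All members are named, and of each pathway list up to 3 called genes per comparison with the largest change and no overlap between groups, with 2 genes per member by correlation; some listed genes are not reported here. Residuals of same-numbered libraries from their group means correlated by 0.53 to 0.841 in every WT pair of groups. WT replicate 2 stood apart in each group, so replicates 1 and 3 both lay opposite to it and correlate whatever their numbers. The values therefore do not show that numbers 1 and 3 pair WT libraries. WT C16 replicate 1 was 0.669 from WT RE replicate 3 and 0.726 from WT RE replicate 1 (root mean square log2 difference). The residuals correlated by 0.251 to 0.337 between AE9a RE and AE9a DMSO, but by as little as 0.061 for AE9a C16 and −0.257 between genotypes. Promoter windows came from RefSeq on GRCm38.p6 and were not combined with GRCm39 positions.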

Additional observations from a re-analysis of the deposited data

Results flagged for a closer look

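The C16 response of Pbx3 differed between the genotypes by −1.14 on the log2 scale (AE9a minus WT, SE 0.22, adjusted p = 0.0047 by edgeR's quasi-likelihood test). The change under C16 was −1.46 ± 0.12 in AE9a cells and −0.26 ± 0.19 in WT cells, and all 3 C16 libraries were below all 3 DMSO libraries in each genotype. Runx1t1 and Kit fell under C16 in AE9a cells, and their part in the Pbx3 difference was not tested.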

How the results depend on the processing

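Of the members' single results, 954 kept direction and side of the threshold under an alternative, 46 passed it newly, 44 no longer passed it and 35 changed sign; the causes were not tested. Leaving out 1 library gave 0 to 3 members called for AE9a against WT under C16, 2 to 3 under DMSO and 2 to 5 under RE, 4 to 5 for C16 and 2 to 3 for RE against DMSO in AE9a, and left the other counts as they were (0, 1 or 4). Without WT replicate 2 the counts were 5, 5 and 6 for the genotypes under C16, DMSO and RE, 6 and 1 for the C16 and RE responses, and 3, 2 and 5 in WT for C16, RE and C16 against RE. With the replicate block they were 2 for the C16 response and 2, 1 and 4 in WT. The numbers match WT replicate 2 across treatments, and whether they pair the other libraries of a genotype was not settled. In AE9a the block changed no call. The numbers do not pair libraries across genotypes, where the block gave Eya1 under RE an adjusted p of 0.032. In 1 fit of all 18 libraries the counts were 2 (C16) and 1 (RE) in AE9a, 1 (RE) and 2 (C16 against RE) in WT. For the genotypes limma-voom gave 0 under C16 and 3 under RE, no filter 3 under RE, and the groups compared alone 0 and 2. DESeq2 gave 1 for RE in WT, and the 1 CPM filter 2 for the C16 response.

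Changes of sign were all in values not called. Meis1 under RE in WT was −0.067 by limma-voom and −0.076 with the replicate block (−0.324 to 0.496 leaving out 1 library). Pbx2 in AE9a was −0.001 (1 CPM filter) and −0.005 (groups compared alone) for C16 (−0.005 to 0.018 leaving out 1 library), and 0.004 in the fit of 18 for RE. Pbx3 for C16 against RE in WT was −0.003 (fit of 18), −0.017 (limma-voom), −0.015 (groups alone), −0.001 (block) and −0.025 (upper quartile), and −0.089 to 0.165 leaving out 1 library. Its RE response was −0.022 (1 CPM filter), −0.002 (DESeq2), −0.014 (limma-voom), −0.02 (upper quartile) and −0.081 (without WT replicate 2), and −0.11 to 0.087 leaving out 1 library. Leaving out 1 library also gave −0.05 to 0.391 for Eya1 under C16 in WT, −0.148 to 0.8 for its RE response, −0.001 to 0.019 for Jmjd1c under RE in AE9a, −0.726 to 0.009 for Mef2c under RE in WT, 0 to 0.17 for Meis1 in C16 against RE in AE9a and −0.36 to 0.461 for its RE response.

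Genes called over the whole table moved widely. In WT, for C16, the 467 became 2999 (fit of 18), 1878 (DESeq2), 206 (no filter), 81 (groups alone), 3646 (block) and 6341 (without replicate 2). For C16 against RE the 1789 became 4497, 3172, 920, 281, 5145 and 6737 in the same order, and for RE the 4 became 29, 75 (DESeq2), 0 (groups alone), 77 (block) and 1219. For RE in AE9a the 4261 became 500 in the fit of 18. The C16 response's 2065 became 5813 (block) and 8038 (without replicate 2), and the RE response's 0 became 34, 1, 7 and 201 (DESeq2, groups alone, block, without replicate 2). AE9a against WT gave 10525, 8172 and 8801 without replicate 2 under C16, DMSO and RE, where 5540, 4225 and 5664 were called, and 1 under C16 with the groups alone. Leaving out 1 library gave 0 to 1329 for C16, 302 to 2161 for C16 against RE and 0 to 1 for RE in WT, 2351 to 3852 for RE in AE9a, 1550 to 8760 for the genotypes under C16, and 1084 to 6394 for the C16 and 0 to 1 for the RE response. The WT C16 count was 0 without WT C16 replicate 1 or 3 or WT DMSO replicate 1, 2 without WT DMSO replicate 3, 253 without WT DMSO replicate 2 and 1329 without WT C16 replicate 2. Depth limits Eya1 most, with 2 to 17 fragments per RE library.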
